A study of Mus musculus with 2 samples.

Results

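Pou5f1, Nanog, Sall4, Utf1, Prdm1, Dppa3, Dnd1, Ifitm3, Kit and Kitl are 10 genes of pluripotent cells, of primordial germ cells and of the signal that keeps germ cells alive. They were chosen by name and role, with earlier results of these data known. All 10 had a probe that was detected, meaning that the scanner software called the same genotype, or both genotypes, well above background on each array. They stand among 26277 detected genes of 33307 on the array. The genes lie on 7 chromosomes and were read by 17 probes, of which 16 were detected.

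The RNA came from the posterior part of mouse embryos of 13 somites, cut away behind the most recently formed somite boundary. Tissue of 7 Cdx2+/-Cdx4-/- embryos, which carry 1 intact copy of Cdx2 and lack Cdx4, made the mutant pool, and tissue of 7 wildtype embryos made the wildtype pool. Both pools were hybridised together on dual-colour oligonucleotide arrays in a dye swap: replicate 1 held the mutant pool in Cy5 and the wildtype pool in Cy3, and replicate 2 held them the other way round. How the alleles were made, the strain and the sex of the embryos are not given in the sources used here. There was 1 pool per genotype, so no difference between genotypes has a biological replicate check and no p-value between genotypes is given. Each error below is an SD over the 2 arrays and so technical, and the number of arrays limits the precision. An SD of 2 values is itself imprecise, so a small one does not show a precise ratio. Over all detected genes, the log2 ratios of mutant over wildtype had a pooled SD between arrays of 0.19. Their Pearson correlation between the arrays was 0.07.

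Cdx proteins are homeodomain transcription factors that keep the posterior growth zone of the embryo extending. Pou5f1 and Nanog hold cells of the early epiblast in a pluripotent state and are switched off as somatic tissues form, while primordial germ cells, the precursors of eggs and sperm, keep or regain them. In the mouse, germ cells are set aside by BMP signals at the base of the allantois through Prdm1, enter the hindgut and migrate along it, and they depend on Kit ligand from neighbouring somatic cells acting on the receptor Kit at their surface. They are few among the cells of the posterior embryo.

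The labels were first checked on the altered genes. Cdx4 had normalised signals of 127.7 and 179.2 in the mutant pool, against 780 and 971 in the wildtype pool, a log2 ratio of -2.52 ± 0.12. Cdx2 had a log2 ratio of -0.05 ± 0.09, and 0.00 ± 0.24 on a dimmer probe, so its values show no loss of a copy; the place of the probes in the altered allele is unknown here, and the Cdx2 part of the label stays unchecked. Cdx1 had 0.19 ± 0.09. All 9 of 9 markers of posterior tissue were detected, with a median log2 ratio of -0.05. Below 0 on both arrays were 4 of 9, against 24.4% of all detected genes. Cyp26a1, an enzyme that breaks down retinoic acid, passed the 1.5-fold rule given below as lower (-1.04 ± 0.08). Their summed signals were 8797 and 8838 in the mutant pool and 11790 and 11500 in the wildtype pool, most of the difference being from T, a factor of the posterior mesoderm (4960 and 5372 in the mutant pool, against 7106 and 7445 in the wildtype pool), and Cyp26a1. Of 9 extraembryonic markers, 7 were detected, with a median of 0.01, and Plac1 passed as lower (-1.03 ± 0.16). A normalised signal is the spot's brightness after background correction with a constant of 50 added and dye normalisation, in array units on a linear scale. It was 56.2 and 64.7 in the mutant channel and 61.2 and 58 in the wildtype channel at the median negative control spot. On replicate 2 the lowest signals called well above background, 63.5 in the mutant and 51.7 in the wildtype channel, lay under these medians. Signals of different probes depend on the probes and are not compared with each other, so the genes are not ranked by level. A sum over a marker list adds such signals, with the constant of 50 in each, so bright probes weigh most. The sums here and below therefore describe the probes and do not measure an amount of tissue.

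None of the 10 genes differed between the pools by 1.5-fold or more on each array, where 119 of all detected genes did, or 0.453%. No member reached 1.5-fold on either array alone. At a smaller size, 1.3-fold lower on each array, Kit was the 1 member that passed, where 0.746% of all detected genes passed. Nanog, Sall4, Prdm1, Dnd1 and Kit, 5 of 10, were below 0 on both arrays, against 24.4% of all detected genes. Dppa3, 1 of 10, was above 0 on both arrays, against 23.3% of all detected genes. The other 4 genes, Pou5f1, Utf1, Ifitm3 and Kitl, had opposite signs on the arrays. Over both arrays, the normalised signals of the pools did not overlap for 3 members, Kit, Dppa3 and, narrowly, Dnd1, and for 20.2% of all detected genes. The median log2 ratio of the 10 genes was -0.09, with -0.03 on replicate 1 and -0.11 on replicate 2, and that of all detected genes was 0.00. For 5 of the 10, the SD between arrays was larger than the mean ratio itself. With median centring of each array in place of loess, 2 members rather than 5 were below 0 on both arrays. In tissue RNA of this kind, more or fewer cells of a type and more or less RNA per cell cannot be told apart.

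**Figure D1:**
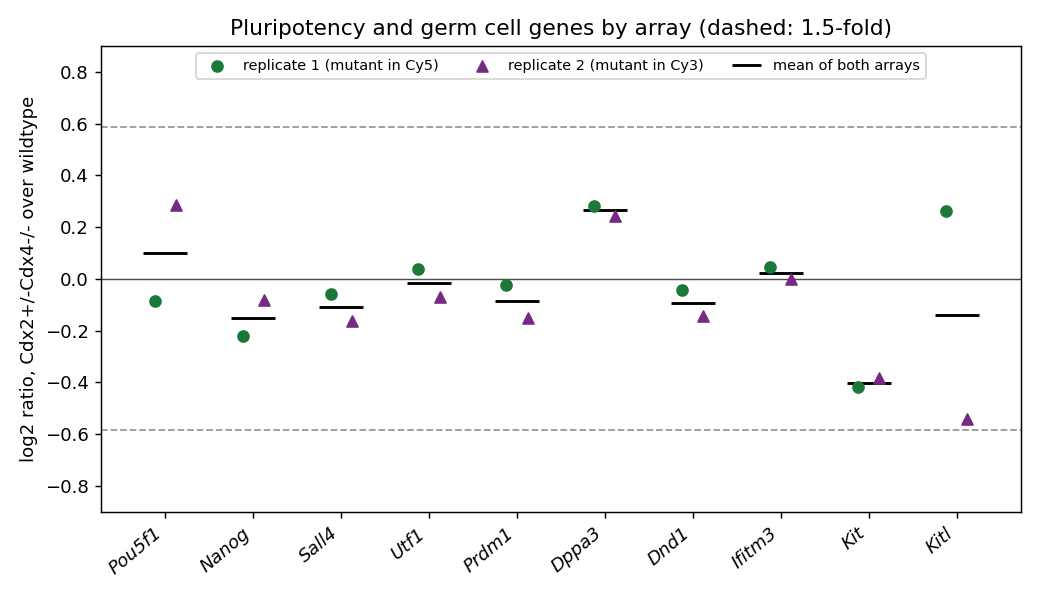
Log2 ratio of Cdx2+/-Cdx4-/- over wildtype (vertical axis) for each of the 10 genes, with a point per array and a bar at the mean of both arrays; dashed lines mark 1.5-fold. The mean ratios lie between -0.40 (Kit) and 0.26 (Dppa3), and the arrays of Kitl lie farthest apart, at 0.26 and -0.54.

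Pou5f1 encodes OCT4, the POU-domain factor at the centre of the pluripotency network and a marker of early germ cells. It had signals of 69.5 and 92.9 in the mutant pool, against 73.8 and 76.3 in the wildtype pool, on a probe at chr17:34015926-34018604. The mutant pool was lower on replicate 1 and higher on replicate 2, and the pools overlapped. The log2 ratio was 0.10 ± 0.26, with -0.09 on replicate 1. This probe reads close to the background in both pools: the mutant channel passed the software's background call on 1 array and the wildtype channel on both. Its brightness, the mean log2 intensity of both channels and arrays, was 6.28, within the dimmest of 10 brightness classes of equal size over the detected genes. A second probe, at chr17:34020233-34020293, was well above background on 1 of 2 arrays in each pool and is not counted as detected. All probe positions are in the coordinates of the files, whose genome build they do not name, so the exon a probe lies in was not determined.

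Nanog, the homeodomain factor that stabilises pluripotency and is active again in germ cells, had signals of 135.5 and 111.1 in the mutant pool, against 157.8 and 117.8 in the wildtype pool (chr6:123351823-123351882). The mutant pool was the lower one on each array, while the mutant value of replicate 1 lay above the wildtype value of replicate 2. The log2 ratio was -0.15 ± 0.10. Among detected genes of like brightness (its class, where Nanog lies at 7.02) the SD between arrays was 0.183, larger than Nanog's ratio.

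OCT4 and its partner SOX2 are known to act on Nanog through neighbouring binding sites just before its start. The stretch is shown because it links 3 of the genes measured here; it is from RefSeq on GRCm38.p6, chr6:122707239-122707488, plus strand, 5′ to 3′, and ends at the transcription start.
Nanog: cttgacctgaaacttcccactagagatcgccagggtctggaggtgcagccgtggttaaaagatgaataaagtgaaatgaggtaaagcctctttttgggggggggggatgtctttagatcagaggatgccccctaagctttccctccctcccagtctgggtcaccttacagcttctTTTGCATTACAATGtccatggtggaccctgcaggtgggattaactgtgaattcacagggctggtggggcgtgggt
The capitals mark a POU site, TTTGCAT, and a SOX site, ACAATG, with 1 base between them. Searched on both strands from 250 bases before to 50 bases after each start, that arrangement was found in 2 of 32851 windows, 0.00609%, both of them starts of Nanog. The spelling searched is the one known from Nanog, so the match was fixed by the choice. The octamer ATGCAAAT, a motif bound by POU factors, was in 1.74% of the windows. It was in none of those of the 7 member genes searched (Nanog, Pou5f1, Utf1, Prdm1, Ifitm3, Kit and Kitl). These are matches of letters in a window, not measured binding.

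Sall4, a zinc finger factor that works with OCT4 in pluripotent cells and is needed in germ cells, had signals of 84.33 and 67.3 in the mutant pool, against 87.75 and 75.41 in the wildtype pool (chr2:168813269-168813328). The mutant pool was slightly lower on each array and the pools overlapped across arrays. Its log2 ratio was -0.11 ± 0.08, and its probe, at a brightness of 6.30, was the other one in the dimmest class. Its relatives Sall1, Sall2 and Sall3, zinc finger factors of many developing tissues, were also detected. Sall2 had 1511 and 1588 in the mutant pool, against 1197 and 1164 in the wildtype pool, a log2 ratio of 0.39 ± 0.08. Its pools did not overlap, as for 20.2% of all detected genes. Sall1 had a log2 ratio of 0.17 ± 0.15 and Sall3 of -0.12 ± 0.02. None of the 5 detected Sall and Ifitm relatives passed the 1.5-fold rule.

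Utf1, a chromatin-associated factor of pluripotent cells and germ cells, had signals of 201 and 125.7 in the mutant pool, against 196 and 132.1 in the wildtype pool (chr7:127597138-127597197). Both pools were high on replicate 1 and low on replicate 2, so the arrays differed more than the genotypes did. Its log2 ratio was -0.02 ± 0.08, smaller than its own spread.

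**Figure D2:**
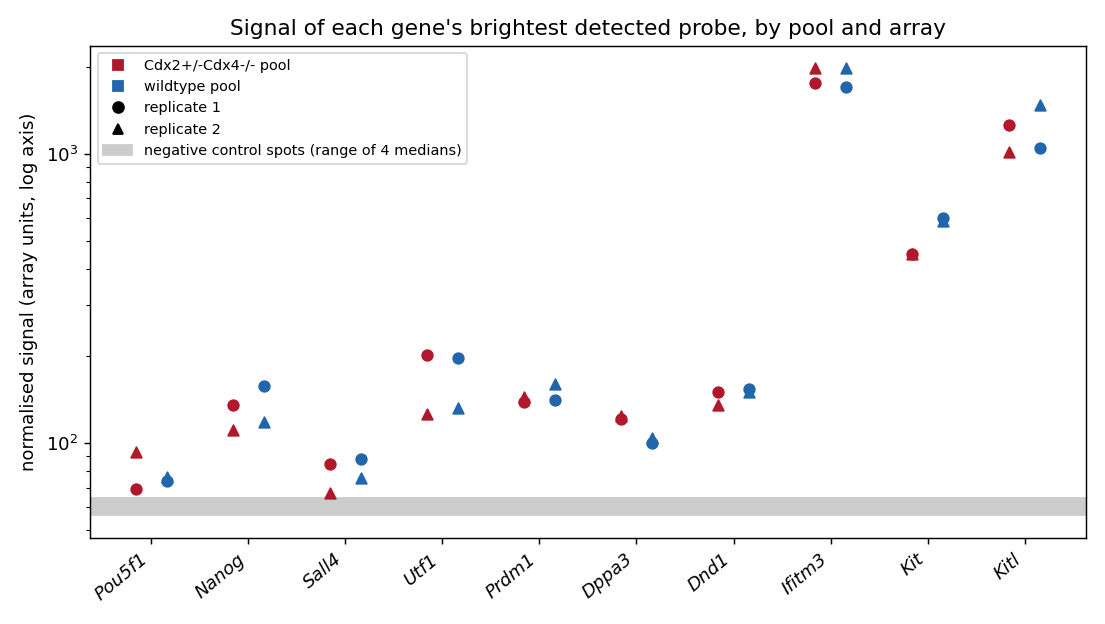
Normalised signal (vertical log axis, array units) of the brightest detected probe of each gene in the Cdx2+/-Cdx4-/- pool (red) and the wildtype pool (blue), circles for replicate 1 and triangles for replicate 2, over a grey band from 56.2 to 64.7 for the medians of the negative control spots. Pou5f1 and Sall4 lie just above the band, and the pools do not overlap for 3 genes, Kit, Dppa3 and, narrowly, Dnd1, as for 20.2% of all detected genes.

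Prdm1, the transcriptional repressor BLIMP1 that starts the germ cell programme and is also needed in several somatic tissues, had signals of 138.1 and 144.3 in the mutant pool, against 140.4 and 160.2 in the wildtype pool (chr10:44359095-44359154). The mutant pool was lower on each array, and the pools overlapped across arrays. Prdm1 thus had a log2 ratio of -0.09 ± 0.09, no larger than its spread. A dimmer probe, 18672 bases away, gave 0.09 on replicate 1 and -0.36 on replicate 2, so it showed no steady direction.

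Dppa3 encodes STELLA, a small nuclear protein that marks mouse germ cells from their founding and protects methylation marks in the early embryo. It had signals of 121.3 and 123.5 in the mutant pool, against 99.65 and 104.3 in the wildtype pool (chr6:123267698-123267757). Both mutant values lay above both wildtype values. Its log2 ratio was 0.26 ± 0.03, a difference of 1.20-fold, and it was the 1 member higher on both arrays. Its size depended on the processing, with 0.13 without background subtraction and 0.48 with the scanner software's ratio. Over detected genes of like brightness the SD between arrays was 0.202, wider than the 0.03 of Dppa3 itself. Nanog, on the same chromosome with its probe 84125 bases from that of Dppa3, had a ratio of -0.15 in the other direction. Germ cells of this age lie in and near the hindgut, and 8 of 8 genes listed as hindgut markers were detected. Whether these markers are particular to hindgut in this tissue was not tested. Their summed signals were 3252 and 3307 in the mutant pool and 2493 and 2318 in the wildtype pool. Most of that difference was from Trh (512.5 and 455, against 168.3 and 89.01) and Nepn (469.9 and 406.8, against 123.1 and 116.7). The median log2 ratio of the 8 markers was 0.09. Trh and Nepn passed the 1.5-fold rule as higher, and none was lower. The part of hindgut tissue in the Dppa3 value was not tested.

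Dnd1, an RNA-binding protein that germ cells need to survive, had signals of 149.5 and 135.7 in the mutant pool, against 154.1 and 149.9 in the wildtype pool. The probe lies on chromosome 18. Both mutant values lay just below both wildtype values, and the log2 ratio was -0.09 ± 0.07. A dimmer probe 340 bases away gave -0.02 ± 0.07, smaller than its spread.

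Ifitm3, the membrane protein FRAGILIS of germ cells and their precursors, also known from antiviral defence, had signals of 1761 and 1971 in the mutant pool, against 1706 and 1974 in the wildtype pool (chr7:128699963-128700022). The pools overlapped fully, and the log2 ratio was 0.02 ± 0.03. It was the brightest of the members' probes, at 10.86. A dimmer probe 97 bases away gave 0.17 ± 0.15. Its neighbour Ifitm1, a related membrane protein whose probe lies 40671 bases away, did not pass the 1.5-fold rule: it had 2523 and 2407 in the mutant pool, against 3233 and 3460 in the wildtype pool. Both Ifitm1 mutant values lay below both wildtype values, the log2 ratio was -0.44 ± 0.12, and a second probe gave -0.42 ± 0.02. With median centring the arrays of Ifitm1 had opposite signs (0.16 and -1.22). Ifitm5 had a log2 ratio of 0.058 ± 0.005 and Ifitm10 of 0.00 ± 0.06.

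Kit, the receptor tyrosine kinase for Kit ligand, carried the lowest ratio of the 10 genes. It had signals of 449.4 and 448.5 in the mutant pool, against 601.1 and 584.5 in the wildtype pool (chr5:74351746-74351805). Both mutant values lay well below both wildtype values. The log2 ratio was -0.40 ± 0.03, with -0.42 on replicate 1 and -0.38 on replicate 2, so Kit was 1.32-fold higher in wildtype. The SD between arrays over genes of like brightness was 0.143. The scanner software's own error model for spots, in the authors' deposited table, gave Kit a p-value under 0.05 on both arrays in the same direction, the 1 member for which it did so, where 1.35% of all detected genes had one. By the same model the p-values were 0.023 and 0.078 for the Kit probe that overlaps this one. They were 0.72 and 0.82 for the third Kit probe, so neither was under 0.05 on both arrays. That model covers error within an array, not between embryos.

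Other probes of Kit were less uniform. A probe that overlaps the first by 5 bases, and so reads nearly the same place, had 279.7 and 291.3 in the mutant pool, against 353.7 and 373.2 in the wildtype pool, a log2 ratio of -0.35 ± 0.01. The third probe, 35388 bases upstream of the first in the files' coordinates, had 169.3 and 145.8 in the mutant pool, against 174.4 and 157.1 in the wildtype pool. Its pools overlapped and its log2 ratio was -0.08 ± 0.05 at a brightness of 7.33, against 9.01 for the first. The 1.3-fold call for Kit was narrow. It ended without background subtraction (-0.35 and -0.33), with the median over its probes (-0.34 and -0.36) and with median centring in place of loess (-0.01 and -0.92); the mean stayed between -0.47 and -0.34 in all 8 settings.

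**Figure D3:**
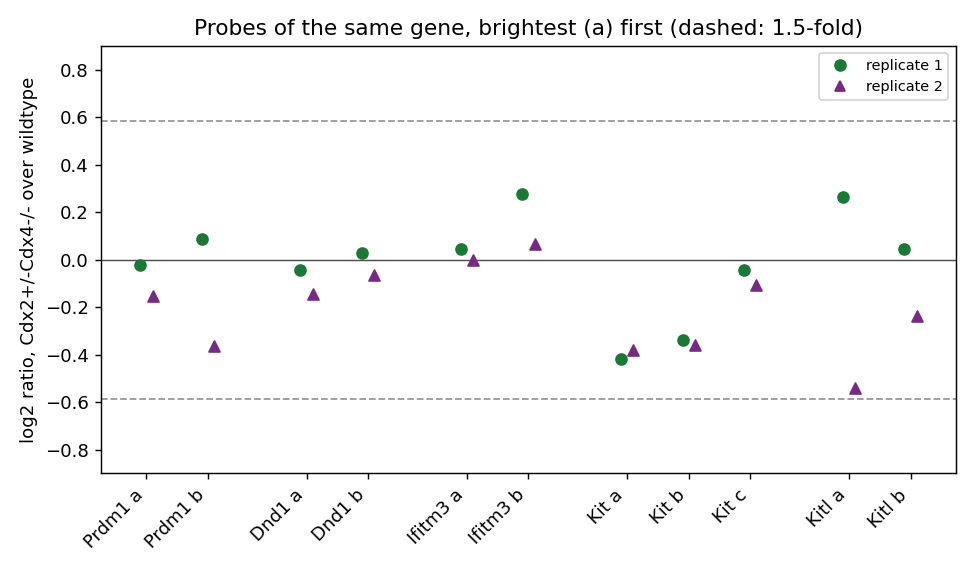
Log2 ratio of Cdx2+/-Cdx4-/- over wildtype on each array for the 5 genes with more than 1 detected probe, the brightest probe (a) first; dashed lines mark 1.5-fold. Kit probes a and b lie together near -0.40 and -0.35, probe c lies near -0.08, and both Kitl probes are higher on replicate 1 than on replicate 2.

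Kitl encodes the ligand of Kit, which somatic cells along the germ cells' path make. It had signals of 1257 and 1010 in the mutant pool, against 1048 and 1471 in the wildtype pool (chr10:99878393-99878452). The mutant pool was the higher one on replicate 1 and the lower one on replicate 2, and on each array the pool in Cy5 was the brighter. The log2 ratio was -0.14 ± 0.57, and the dye component, Cy5 over Cy3 averaged over both orientations, was 0.40 on the log2 scale. Of all detected genes, 1.59% had a dye component at least as large. A dimmer Kitl probe 3180 bases away also had the pool in Cy5 brighter on each array, with log2 ratios of 0.05 and -0.24. No direction is given for Kitl.

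The stretches before the starts of receptor and ligand are shown because this pair held the largest differences between pools and between arrays. Both are from RefSeq on GRCm38.p6, plus strand, 5′ to 3′, and end at the transcription start, Kit at chr5:75574737-75574986 and Kitl at chr10:100015571-100015820.
Kit: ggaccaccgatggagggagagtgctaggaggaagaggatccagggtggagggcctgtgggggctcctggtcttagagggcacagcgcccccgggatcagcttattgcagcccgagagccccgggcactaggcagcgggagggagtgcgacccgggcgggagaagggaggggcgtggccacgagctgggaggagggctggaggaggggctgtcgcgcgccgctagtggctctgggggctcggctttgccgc
Kitl: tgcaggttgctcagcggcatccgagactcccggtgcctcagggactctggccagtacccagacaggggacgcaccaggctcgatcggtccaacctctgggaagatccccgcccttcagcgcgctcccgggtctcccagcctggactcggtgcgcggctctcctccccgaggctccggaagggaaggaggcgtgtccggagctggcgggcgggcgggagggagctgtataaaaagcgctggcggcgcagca
TTTATG, a core of the motif that CDX proteins bind, was searched on both strands from 250 bases before to 50 bases after each start. It was in 11.9% of the 32851 windows and in none of those of the 7 member genes searched. No letters of these stretches are therefore in capitals. Dppa3, Dnd1 and Sall4 were not searched, and at a share of 11.9% none in 7 genes says little. The search says nothing of sites outside these windows.

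Kit is made by other cells than germ cells, among them blood progenitors and melanoblasts, and its probe lies 321883 bases from that of its chromosomal neighbour Kdr, the VEGF receptor of endothelium, in the files' coordinates. Of 10 endothelial markers, 9 were detected. All 9 were below 0 on both arrays, against 24.4% of all detected genes. Their median log2 ratio was -0.37, with a range from -1.06 to -0.12. Their summed signals were 2832 and 2541 in the mutant pool and 4123 and 3995 in the wildtype pool; Cldn5, a tight junction protein, and Sox18, an endothelial transcription factor, passed the 1.5-fold rule as lower. With median centring 6 of the 9 were below 0 on both arrays and the call of Sox18 ended (-0.27 and -1.23). Without background subtraction its call also ended (mean -0.55) and the list's median was -0.22. Kdr itself had a log2 ratio of -0.60 ± 0.33, with -0.37 on replicate 1 and -0.84 on replicate 2, and did not pass the rule. Of 8 primitive blood markers, 6 were detected, none passed the rule and the median was -0.08. Their sums were 19630 and 20650 in the mutant pool and 18750 and 21290 in the wildtype pool. Most of each sum was the probe of Hba-x (17830 and 18770 in the mutant pool, 16900 and 19100 in the wildtype pool). Of 7 neural crest and melanoblast markers, 6 were detected and none passed the rule. Their log2 ratios ranged from -0.56 to 0.06, with a median of -0.015. Their sums were 3152 and 3201 in the mutant pool and 3222 and 3332 in the wildtype pool. The largest part was from Pax3 (1863 and 1969 in the mutant pool, 1800 and 1974 in the wildtype pool). The part of these cell types in the Kit value was not tested.

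Genes that act with Kit were described from a list. Of 15 listed genes of Kit signalling, 13 were detected, 1 was lower by the 1.5-fold rule, none was higher, and the median log2 ratio was -0.02. The 1 was Mmp9, a secreted protease known for releasing soluble Kit ligand in bone marrow, with 193 and 173.8 in the mutant pool, against 320.3 and 286.3 in the wildtype pool. Its mutant values lay below its wildtype values, with a log2 ratio of -0.73 ± 0.01, or 1.65-fold higher in wildtype. A dimmer Mmp9 probe gave -0.29 ± 0.27, and the call ended without background subtraction (mean -0.51), with the median over probes (-0.51) and with median centring (-0.42 and -1.08). Spred1, an inhibitor of the RAS pathway downstream of Kit, had 0.37 ± 0.19, and Sh2b3, an adaptor that dampens Kit signals, had -0.37 ± 0.27.

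Of 22 other pluripotency genes, 19 had a probe and 11 were detected, with a median log2 ratio of -0.12. Below 0 on both arrays were 7 of 11, and 1 was above 0, against 24.4% and 23.3% of all detected genes. With median centring 1 was below 0 and 1 above 0 on both arrays. With loess, 1 was higher by the 1.5-fold rule and none was lower. The 1 was Sox2, the partner of OCT4, which acts in pluripotent cells and also in neural tissue of the embryo. It had 442.9 and 457.9 in the mutant pool, against 264.1 and 251.5 in the wildtype pool. The pools did not overlap for Sox2, as for 20.2% of all detected genes. The log2 ratio of Sox2 was 0.81 ± 0.08 (1.75-fold), and its call ended with median centring (1.11 and 0.39). Beside it, Fgf4, a growth factor of pluripotent cells and of the posterior embryo, had -0.35 ± 0.01, and Tbx3 had -0.31 ± 0.01.

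Of 14 other germ cell genes, 10 were detected and none passed the 1.5-fold rule in either direction. Some read close to the negative control spots, such as Dazl (70.7 and 76.37 in the mutant pool, 74.35 and 69.36 in the wildtype pool). For these a difference may not have been detectable. The list had 3 genes below 0 and 4 above 0 on both arrays, against 24.4% and 23.3% of all detected genes. Its median log2 ratio was 0.035. Ifitm1, described above, had the largest ratio, and Tfap2c, which acts with Prdm1 in founding germ cells, came next with 0.20 ± 0.00. Of 11 genes that signal to germ cells or hold them in place, 10 were detected, none passed the rule and the median was -0.03. Gja1, a gap junction protein, had 5597 and 4560 in the mutant pool, against 4301 and 3739 in the wildtype pool, a log2 ratio of 0.33 ± 0.07. Cxcr4, the chemokine receptor that guides migrating germ cells, had 0.26 ± 0.16.

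**Figure D4:**
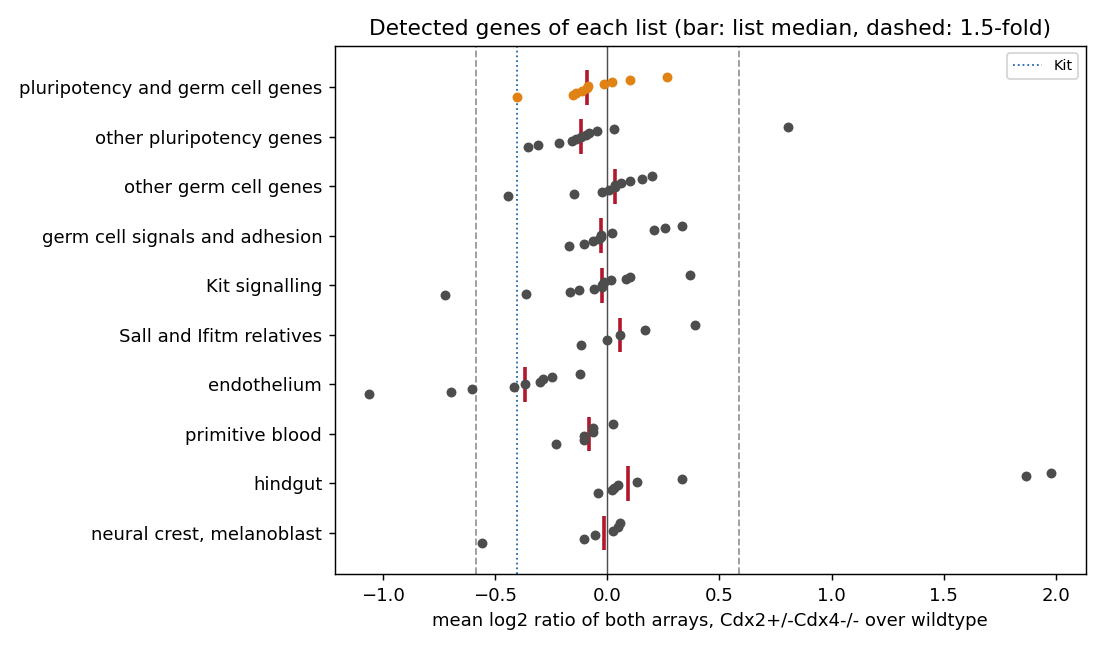
Mean log2 ratio of Cdx2+/-Cdx4-/- over wildtype (horizontal axis) for each detected gene of a list, a row per list, with a red bar at the list's median, dashed lines at 1.5-fold and a dotted line at Kit (-0.40). All 10 genes of the top row lie between the dashed lines, and the endothelial row has its median at -0.37.

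The spread between arrays varied with brightness but in no single direction: its SD was 0.184 in the dimmest of the 10 classes, 0.143 in the class that holds Kit and 0.23 in the brightest, which holds Ifitm3. Of the 10 genes, 6 had a probe below the median brightness of all detected genes, 7.25, and Pou5f1 and Sall4 lay in the dimmest class. The SD over genes of the mean ratio was 0.098 in that class and 0.182 in the class that holds Kit, so ratios of dim probes were spread less, with the constant of 50 added to every signal. Close to background, a difference between the pools in Pou5f1, Sall4 or dim list genes such as Dazl may not have been detectable on these arrays.

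**Figure D5:**
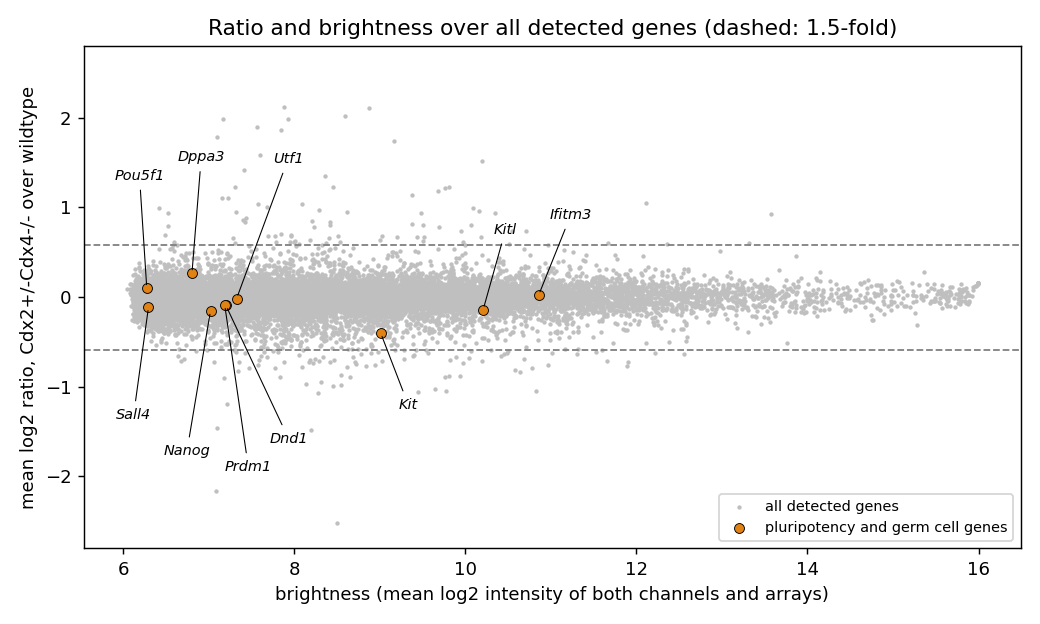
Mean log2 ratio of Cdx2+/-Cdx4-/- over wildtype (vertical axis) against brightness (horizontal axis, mean log2 intensity) for all detected genes in grey and the 10 genes in orange; dashed lines mark 1.5-fold. Pou5f1 and Sall4 sit at the dim end, at 6.28 and 6.30, and Kit lies at 9.01 and -0.40, inside the dashed lines.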

How the data were processed

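Agilent dual-colour arrays measured RNA of 1 mutant and 1 wildtype pool, in both dye orientations. The deposited intensity values are mean spot brightness and median local background in Cy3 and Cy5, not yet normalised, per the file headers. A deposited log10 ratio (Cy5 over Cy3, background-corrected and dye-normalised by the scanner software) and the deposited p-value of its error model, per the file headers, served as alternatives. Agilent Feature Extraction is listed as 9.5.3 in the submitters' processing notes and as 7.5.1 in the file headers.

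Mean intensities were background-corrected with normexp (offset 50) on all 43430 spots and normalised by loess within each array, with control spots at weight 0, in limma 3.58.1 (R 4.3.3). Non-uniform spots were dropped (205 and 90), and none of the members' spots was saturated. Repeat spots were averaged, which left 41013 probes, and a gene's detected probe of highest brightness stood for it. Gene names were updated through accessions and a RefSeq table. Median intensity on replicate 1 was 149.7 in Cy3 and 159.46 in Cy5; replicate 2 had 145.64 and 155.28.

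The comparison was described by ratios with no test between genotypes. The steps were run on simulated data with 2-fold changes placed in bright spots alone. That run says nothing of dim genes or of smaller ratios. Named were all members, list genes past the 1.5-fold rule, the 2 of each list with the largest ratios, the Sall and Ifitm relatives, markers past the rule and Cdx genes. Exceptions, named after their values were seen, are Kdr, a chromosomal neighbour of Kit, T, Dazl, Hba-x, Pax3 and the genes under other observations. Members and lists were chosen with earlier results of these data known. List genes with no matching probe, such as Klf4, Prdm14 and Ifitm2, were not analysed here. A result of a single list gene is not reported here, and its list was counted without it.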

Additional observations from a re-analysis of the deposited data

How the results depend on the processing

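The count of members past 1.5-fold on each array was 0 in every setting run, and 1 (Kit) at 1.3-fold on each array. Over all detected genes the count was 119 (59 higher, 60 lower, 49.6% higher). It was 68 without background subtraction (60.3% higher), 45 with median centring (64.4% higher), 362 with the software's ratio, 340 at 1.3-fold, 27 at 2-fold (74.1% higher) and 194 with the software's error model at 0.01 (44.8% higher). With 1 array left out it was 456 to 566, with 71.7% higher on replicate 2 alone and 17.1% higher on replicate 1 alone, so the even split rests on using both arrays. The median of the members, -0.09, was -0.15 with the software's ratio and ranged from -0.114 to 0.006 with 1 array left out, where detection was set on the array kept and another probe stood for Pou5f1. Of 80 values of single members under alternatives, 65 moved by less than the spread between arrays and 15 by more. Part of the 65 was fixed in advance, so the count is no measure of robustness. With 1 array left out, the mean over both arrays moves by less than their SD unless the probe changes. Genes with 1 probe keep their value with the median over probes, and removing the detection filter changed Pou5f1 alone. The sign turned for Utf1 in 3, Ifitm3 in 2 and Kitl in 1 of 8 settings each. Dppa3 ran from 0.13 without background subtraction to 0.48 with the software's ratio. With median centring, which leaves each array's trend of ratio with brightness in place, 2 members in place of 5 were below 0 on both arrays, and Kitl had 0.73 and -1.17. The alternatives for the other lists and for Sox2, Mmp9, Ifitm1, Cdx4, Cldn5 and Sox18 were added after the data were seen: the endothelial median ran from -0.65 to -0.22. No paired analysis was possible because there is just 1 pool of each genotype, and an array is itself the pair. Dim probes limit what could be read for Pou5f1 and Sall4 and for dim genes of the other lists.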

Other observations

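Bmp4, Cxcl12 and Wnt3, secreted signals known from germ cell founding and migration, were named after their values were seen, for their opposite signs on the arrays. Such signs are common, since 24.4% of all detected genes were below 0 and 23.3% above 0 on both arrays. Bmp4, which founds the germ line in the mouse, had signals of 3952 and 3407 in the mutant pool, against 3625 and 4305 in the wildtype pool, a log2 ratio of -0.11 ± 0.33. Cxcl12, the chemokine that Cxcr4 binds, had 1173 and 835.3 in the mutant pool, against 999.1 and 1072 in the wildtype pool, a log2 ratio of -0.06 ± 0.42. On each array the pool in Cy5 was the brighter for both genes. Wnt3, which primes the epiblast for germ cell founding, had 91.36 and 107.6 in the mutant pool, against 114.5 and 89.03 in the wildtype pool, and there the pool in Cy3 was the brighter. No direction is given for these 3 genes.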
